A study of Homo sapiens with 6 samples.

Results

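The genes described here are 10 mRNAs that ERK signalling induces and that, for the most part, restrain it: the MAP kinase phosphatases DUSP1, DUSP2, DUSP4, DUSP5 and DUSP6, the Sprouty and SPRED proteins SPRY2, SPRED1 and SPRED2, the ETS factor ETV5 and the ERK output gene PHLDA1. They were taken by gene symbol, from a list drawn up with earlier results of these data known, out of a table of 20036 genes, and all 10 symbols were found. The cells were MV411, an established human line of monocytic acute myeloid leukaemia with a KMT2A fusion and a FLT3 internal tandem duplication, with the genotype given as wild type. One group had received corilagin, a polyphenol found in plants, for 48 h and the control group DMSO for 48 h, with 3 libraries each. Expression was measured by poly(A) RNA-seq and given as FPKM, fragments scaled by gene length and library total, at 17776956 to 21640689 fragments per library. The labels do not state whether the replicates were separate cultures, so p-values describe how these libraries vary, and that variation may be technical. All 12 markers chosen for a monocytic leukaemia line were detected and 11 averaged at least 1 FPKM. Markers of erythroid cells were at 0 in every library, and those of T cells, epithelial cells and fibroblasts summed to at most 0.238 FPKM in any library.

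ERK is the last kinase of the cascade that runs from growth factor receptors through RAS, RAF and MEK. Active ERK induces genes whose products switch the cascade off again. DUSP phosphatases remove phosphate from both the threonine and the tyrosine of a MAP kinase's activation loop. Sprouty and SPRED proteins act upstream, between the receptor, RAS and RAF. In leukaemia with an activated FLT3 receptor, the cascade is driven from the membrane, and DUSP6, SPRY and ETV5 mRNAs are widely used as readouts of its activity.

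Promoter sequence from RefSeq (build GRCh38.p14) was matched for 7 of the 10 genes, in 10 windows, each running from 250 bases before to 50 bases after a transcription start. DUSP4, DUSP5 and ETV5 had no entry. The windows of DUSP1, DUSP2 and PHLDA1 are shown because these genes moved in opposite directions: the first 2 fell after corilagin and the last rose. Each line gives the 250 bases upstream of the start, 5′ to 3′ on the gene's strand, with motif matches in capitals. The DUSP1 sequence lies at chr5:172771196-172771445, the DUSP2 sequence at chr2:96145441-96145690 and the PHLDA1 sequence at chr12:76031777-76032026, all on the minus strand.
DUSP1: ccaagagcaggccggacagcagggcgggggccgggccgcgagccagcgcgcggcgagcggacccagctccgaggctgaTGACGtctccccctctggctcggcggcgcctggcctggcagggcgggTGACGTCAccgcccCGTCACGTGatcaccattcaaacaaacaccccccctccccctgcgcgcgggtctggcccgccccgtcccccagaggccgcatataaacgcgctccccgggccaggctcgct
DUSP2: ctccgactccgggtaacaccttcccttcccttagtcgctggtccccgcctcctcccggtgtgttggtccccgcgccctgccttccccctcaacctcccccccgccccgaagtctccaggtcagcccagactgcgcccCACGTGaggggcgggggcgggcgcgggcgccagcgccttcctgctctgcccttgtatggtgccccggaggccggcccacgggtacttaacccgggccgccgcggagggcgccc
PHLDA1: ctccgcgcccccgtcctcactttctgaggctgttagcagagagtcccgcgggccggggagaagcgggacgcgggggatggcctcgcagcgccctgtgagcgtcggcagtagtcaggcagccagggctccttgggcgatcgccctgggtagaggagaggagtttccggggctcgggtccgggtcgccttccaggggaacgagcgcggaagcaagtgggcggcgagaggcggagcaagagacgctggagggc

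The motifs searched on both strands were TGACGTCA (the full cyclic AMP response element), its core TGACG (which every full element also holds), the CArG box bound by SRF, CCGGAAG (an ETS core), TGANTCA (an AP-1 type site) and CACGTG (an E-box). The DUSP1 window held the full element at positions -125 to -118 from the start, a motif present in 1.85% of all 35116 windows. Further TGACG cores lay outside it at -172 to -168 and at -111 to -107, and the latter overlaps an E-box at -108 to -103. An E-box also lay in the DUSP2 window, at -113 to -108. CACGTG was thus found in 2 of the 10 member windows, those of DUSP1 and DUSP2, and in 7.26% of all windows. The core TGACG was found in 3 of the 10 member windows, 1 each of DUSP1, SPRED2 and SPRY2, and in 24.6% of all windows. TGANTCA was found in 1 of the 10 member windows, of SPRED2, and in 7.71% of all windows. No member window held a CArG box (1.29% of all windows) or CCGGAAG (10.3%). The PHLDA1 window held none of the 6 motifs. A match describes these letters only and is not a measured binding site.

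After corilagin, DUSP1 and DUSP2 fell to 0.436 and 0.420 of their DMSO level, and DUSP5, PHLDA1 and ETV5 rose 2.40-fold, 1.66-fold and 1.43-fold. DUSP4, DUSP6, SPRY2 and SPRED2 did not pass the test, and SPRED1 was listed at 0 in every library. In the 9 members that averaged 1 FPKM or more, limma called 3 higher and 2 lower at an adjusted p under 0.05. Among all 9868 genes tested, 25.4% were called, 11.9% higher and 13.5% lower. All corilagin values lay on one side of all DMSO values for 7 of the 9 members, beside 48.3% of the genes tested. A 2-sided exact permutation test returned p = 0.1 for these 7, the smallest value that 3 libraries against 3 allow, 0.4 for DUSP4 and 0.5 for SPRY2. In bulk RNA, fewer cells with a transcript and less of it per cell cannot be told apart.

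The DMSO libraries differed from each other along transcript GC content. Among the tested genes in the lowest eighth of GC content, DMSO replicates 1 and 2 lay 0.51 and 0.45 log2 units below the mean of the gene, while DMSO replicate 3 lay 0.24 above it and the corilagin libraries 0.21 to 0.27 above. Each result is therefore also given with this trend removed from every library, against DMSO replicate 3 alone, or without it, where that matters. The comparison with DMSO replicate 3 alone has 1 control library and so no spread among controls, and only its size is read. The fit without DMSO replicate 3 called 7627 of the 9868 genes tested, so passing there is common. With the trend removed, limma called 5 of the 9 members higher and 2 lower, since DUSP6 and SPRED2 then passed. The same fit called 45.0% of all genes, 21.8% higher and 23.2% lower.

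**Figure D1:**
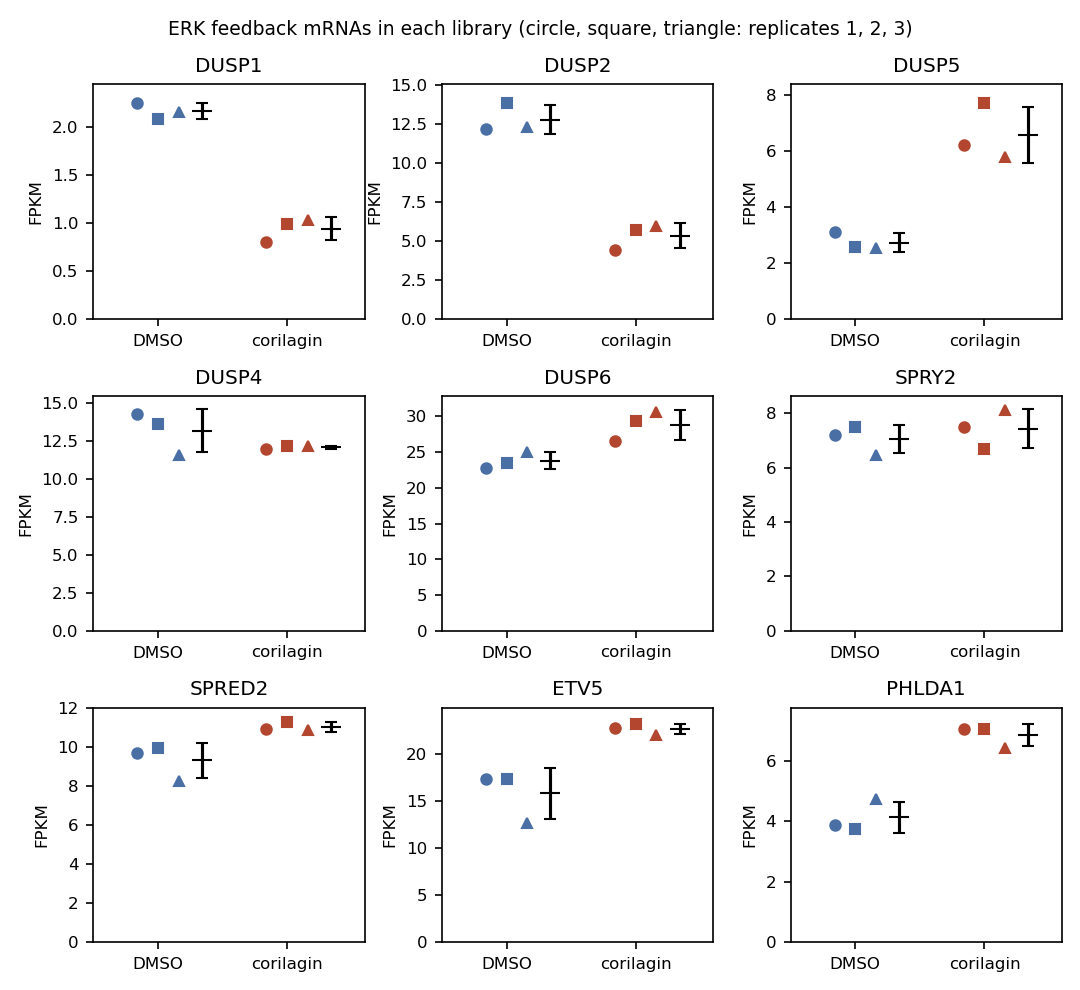
FPKM of the 9 detected members in each library (circle, square and triangle for replicates 1, 2 and 3), with the group mean and SD as a black bar. DUSP1 and DUSP2 lie lower in all 3 corilagin libraries, DUSP5, ETV5 and PHLDA1 lie higher, and the groups of DUSP4 and SPRY2 overlap.

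DUSP1 and DUSP2 encode phosphatases of the nucleus. DUSP1, also known as MKP-1, acts on p38 and JNK as well as ERK, and DUSP2, also known as PAC-1, is a phosphatase of activated blood cells. DUSP1 (ENSG00000120129, GRCh38 chromosome 5, 172768090 to 172771195, minus strand) was at 0.803, 0.99 and 1.03 FPKM in corilagin replicates 1, 2 and 3 and at 2.25, 2.08 and 2.15 FPKM in the DMSO replicates. The groups were well apart, at a low level in both. The values rest on 35 to 39 fragments per corilagin library and 77 to 89 per DMSO library. The mean went from 2.16 ± 0.0850 to 0.942 ± 0.122 FPKM (SD over n = 3), a ratio of 0.436. On the log2(FPKM + 1) scale, which understates changes near 1 FPKM, the difference was -0.70 (SE 0.0772, limma adjusted p = 0.00305). Removing the GC trend gave -0.57 (limma adjusted p = 0.00205).

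DUSP2 (ENSG00000158050, chromosome 2, 96143166 to 96145440, minus strand) was at 4.46, 5.70 and 5.95 FPKM after corilagin and at 12.2, 13.8 and 12.3 FPKM in DMSO. All 3 corilagin libraries were below all 3 DMSO libraries by more than the spread within either group. The mean went from 12.8 ± 0.920 to 5.37 ± 0.80 FPKM, a ratio of 0.420, and the log2 difference was -1.12 (SE 0.116, limma adjusted p = 0.00273). With 63.9% GC, its transcript lies above 93.9% of tested genes in GC content, and removing the GC trend moved the log2 difference to -0.89 (limma adjusted p = 0.000838). Against DMSO replicate 3 alone, the library closest to the corilagin libraries in its GC profile, the ratio was 0.436.

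DUSP5 is a nuclear phosphatase that acts on ERK alone among the MAP kinases and binds it in the nucleus. DUSP5 (ENSG00000138166, chromosome 10, 110497838 to 110511544, plus strand) was at 6.22, 7.70 and 5.80 FPKM after corilagin and at 3.11, 2.58 and 2.53 FPKM in DMSO. The lowest corilagin library was well above the highest DMSO library. Its mean rose 2.40-fold, from 2.74 ± 0.323 to 6.57 ± 1.0 FPKM (SD, n = 3 per group). This was the largest rise among the members, with a log2 difference of 1.01 (SE 0.120, limma adjusted p = 0.00373). Removing the GC trend gave 1.16 (limma adjusted p = 0.000126). GENCODE lists 2 processed pseudogenes of DUSP5 that are not in the deposited table, and reads shared with them could be lost.

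DUSP6, also known as MKP-3, is the cytoplasmic phosphatase that is specific for ERK. DUSP6 (ENSG00000139318, chromosome 12, 89347232 to 89353271, minus strand) was the most abundant member in both groups, at 26.5, 29.3 and 30.6 FPKM after corilagin and 22.8, 23.5 and 25.1 FPKM in DMSO. The groups did not overlap, but the lowest corilagin and the highest DMSO library were close. The ratio was 1.21, and the log2 difference of 0.26 (95% interval 0.06 to 0.47) did not pass in limma (adjusted p = 0.0601). It passed once the GC trend was removed, at 0.22 (limma adjusted p = 0.0215). It also passed without DMSO replicate 3, at 0.30 (limma adjusted p = 0.000487), in a fit that called 7627 of 9868 genes. Against that library alone it was 0.19.

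DUSP4, also known as MKP-2, is a nuclear phosphatase close to DUSP1 in sequence. DUSP4 (ENSG00000120875, chromosome 8, 29333064 to 29350668, minus strand) was at 12.0, 12.2 and 12.2 FPKM after corilagin, a very narrow range, and at 14.3, 13.6 and 11.6 FPKM in DMSO. The third DMSO library was below all corilagin libraries and the other DMSO libraries above them. The log2 difference was -0.11 (95% interval -0.33 to 0.12, limma adjusted p = 0.388). Without DMSO replicate 3 it was -0.19 (limma adjusted p = 0.00297), and against that library alone it was 0.06. The call and the sign thus both depend on that control library.

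The 5 phosphatase mRNAs together stayed near the same level while their mix differed. Their summed FPKM was 49.99, 55.9 and 55.5 in corilagin replicates 1, 2 and 3 and 54.7, 55.6 and 53.7 in the DMSO replicates, so the sums of the groups overlap. DUSP2 made up 23.4% ± 1.35 of that sum in DMSO and 9.94% ± 0.929 after corilagin (SD, n = 3 per group). DUSP1 made up 3.95% ± 0.192 in DMSO and 1.75% ± 0.128 after corilagin. DUSP5 went the opposite way, from 5.01% ± 0.586 to 12.2% ± 1.68, and DUSP6 from 43.6% ± 2.75 to 53.5% ± 1.36. The share of DUSP4 was 24.1% ± 2.31 in DMSO and 22.6% ± 1.25 after corilagin, and its ranges overlap. Within a library, where the library total cancels, the ratio of DUSP5 to DUSP2 was 0.255, 0.186 and 0.206 in the DMSO replicates and 1.40, 1.35 and 0.975 in the corilagin replicates. DUSP5 mRNA was thus near or above the level of DUSP2 mRNA after corilagin and far below it in DMSO. The ratio of DUSP6 to DUSP1 went from 11.04 ± 0.785 to 30.7 ± 1.95. These shares and ratios describe genes already tested above and add no separate test.

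**Figure D2:**
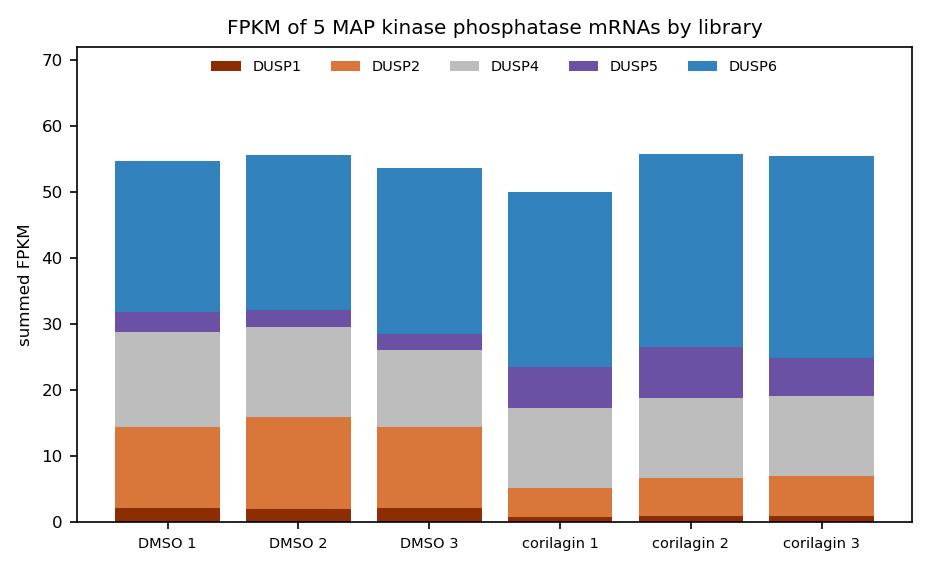
Stacked FPKM of the 5 DUSP mRNAs in each library (bars from 0). The total stays between 49.99 and 55.9 FPKM in all 6 libraries, while the DUSP1 and DUSP2 segments are smaller and the DUSP5 segment is larger in the corilagin libraries.

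Among the Sprouty and SPRED genes, none passed. SPRY2, an inhibitor of receptor tyrosine kinase signalling to RAS (ENSG00000136158, chromosome 13, 80335976 to 80340951, minus strand), was at 7.48, 6.70 and 8.11 FPKM after corilagin and at 7.19, 7.49 and 6.48 FPKM in DMSO. The groups overlap, and the log2 difference was 0.06 (95% interval -0.17 to 0.30, limma adjusted p = 0.622). SPRED2, which brings neurofibromin to RAS (ENSG00000198369, chromosome 2, 65310851 to 65432637, minus strand), was at 10.9, 11.3 and 10.9 FPKM after corilagin and at 9.70, 9.98 and 8.29 FPKM in DMSO. All corilagin values were above all DMSO values by a small margin. Its log2 difference was 0.23 (95% interval 0.01 to 0.44, limma adjusted p = 0.10). Removing the GC trend gave 0.24 (limma adjusted p = 0.0125), and against DMSO replicate 3 alone it was 0.37. Without that library it was 0.15 (limma adjusted p = 0.0142). SPRED1, the other SPRED protein that recruits neurofibromin (ENSG00000166068, chromosome 15, 38252326 to 38357249, plus strand), was listed at 0 in all 6 libraries. At these depths, and for its GENCODE transcript of 7780 bases, a count of 0 allows at most 0.0178 to 0.0217 FPKM, taking 3 fragments as the limit and counting error only.

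ETV5 is a transcription factor of the PEA3 group that ERK signalling induces. ETV5 (ENSG00000244405, chromosome 3, 186046308 to 186110318, minus strand) was at 22.8, 23.2 and 22.1 FPKM after corilagin and at 17.4, 17.4 and 12.7 FPKM in DMSO. The corilagin libraries agree closely, while DMSO replicate 3 was well below the other DMSO libraries. The mean rose 1.43-fold, from 15.8 ± 2.68 to 22.7 ± 0.560 FPKM (SD, n = 3 per group), with a log2 difference of 0.51 (SE 0.126, limma adjusted p = 0.0306). The rise was 1.31-fold without DMSO replicate 3, where it passed, and 1.78-fold against that library alone. It did not pass when any other single library was left out (limma adjusted p = 0.0522 to 0.117). With 48.6% GC the transcript is near the middle of the tested genes, and removing the GC trend left the log2 difference at 0.52 (limma adjusted p = 0.00376). ETV5 overlaps the protein-coding gene DGKG on its own strand and an antisense gene, ETV5-AS1. DUSP1, DUSP6 and PHLDA1 also overlap annotated antisense genes. The sources used here do not say that strand was kept, so reads of antisense partners cannot be told apart.

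PHLDA1 is a pleckstrin homology-like protein whose mRNA is part of published signatures of MEK and ERK output. PHLDA1 (ENSG00000139289, chromosome 12, 76025447 to 76033932, minus strand) was at 7.06, 7.05 and 6.43 FPKM after corilagin and at 3.89, 3.76 and 4.73 FPKM in DMSO. The groups were apart, with DMSO replicate 3 nearest to the corilagin libraries. The mean rose 1.66-fold, from 4.13 ± 0.526 to 6.85 ± 0.360 FPKM, with a log2 difference of 0.62 (SE 0.10, limma adjusted p = 0.00922). The rise was 1.45-fold against DMSO replicate 3 alone. Removing the GC trend gave a log2 difference of 0.47 (limma adjusted p = 0.000716). The call was lost without corilagin replicate 1 or 2 (limma adjusted p = 0.0606 and 0.0613), in fits that called 321 and 307 of all genes.

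**Figure D3:**
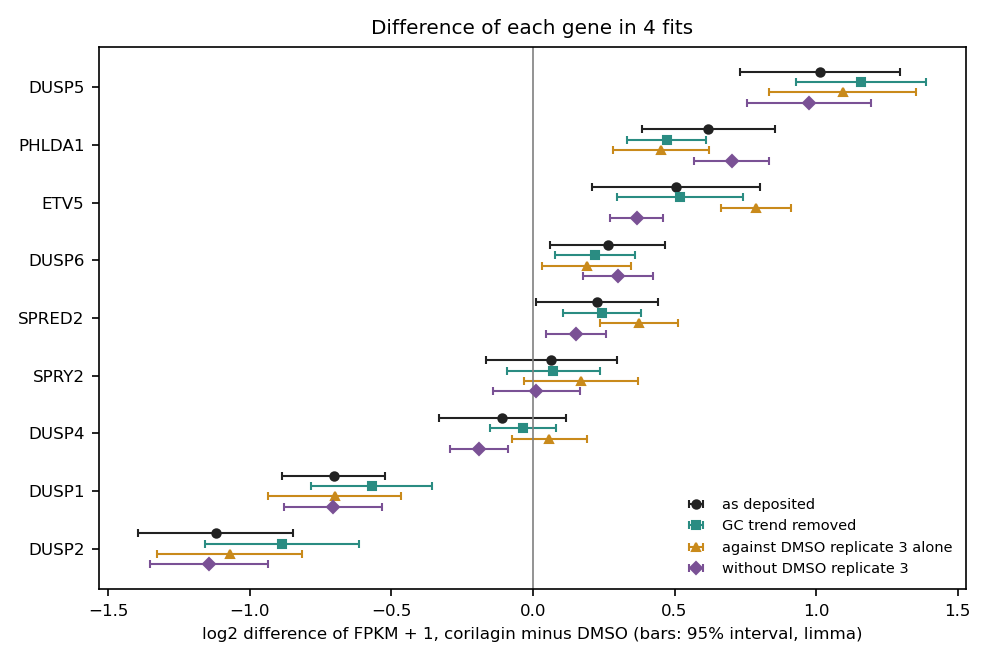
Log2 difference of each member between corilagin and DMSO with its 95% limma interval, in 4 fits: all libraries as deposited, GC trend removed, against DMSO replicate 3 alone, and without that library. DUSP4 changes side of 0 between the 4 fits, and every other member shown keeps its side, SPRY2 included, which did not pass. The interval against DMSO replicate 3 alone carries no spread among DMSO libraries.

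FPKM is scaled by gene length, so levels were ordered across genes as a description. The sources used here do not state the gene lengths used, and the libraries differed along GC content, so the order is approximate. In DMSO the order was DUSP6, ETV5, DUSP4, DUSP2, SPRED2, SPRY2, PHLDA1, DUSP5, DUSP1 and SPRED1. The libraries of ETV5 and DUSP4 overlapped there, as did those of DUSP4 and DUSP2, and the other neighbours were apart. After corilagin the order was DUSP6, ETV5, DUSP4, SPRED2, SPRY2, PHLDA1, DUSP5, DUSP2, DUSP1 and SPRED1. The libraries of SPRY2 and PHLDA1, of PHLDA1 and DUSP5, and of DUSP5 and DUSP2 overlapped. DUSP2 went from the fourth place to the eighth. Among the 9868 genes tested, its level was at the 64.8th percentile in DMSO and at the 35.1st after corilagin, and DUSP5 went from the 18.3rd percentile to the 41.3rd.

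The members differ in gene structure and in the 3′ untranslated region of the longest GENCODE coding transcript. DUSP1 and DUSP2, which fell, span 3106 and 2275 bases, less than all but 3.66% and 2.05% of tested protein-coding genes, whose median is 30756 bases. Other members that did not fall are short as well: SPRY2 spans 4976 bases, DUSP6 6040 and PHLDA1, which rose, 8486. Both have 4 exons, as do DUSP4 and DUSP5. The pentamer ATTTA, the core of AU-rich elements that shorten the life of an mRNA, occurred 4 times in the 672 bases of DUSP1 and 3 times in the 657 bases of DUSP2. That is 5.95 and 4.57 per kilobase, beside a median of 1.64 per kilobase over 9788 tested protein-coding genes. DUSP5, which rose, had none in 1118 bases, and DUSP6 had 1 in 2022 bases. PHLDA1, which also rose, had 14 in 4672 bases, or 3.0 per kilobase, and ETV5 had 1.72 per kilobase. These counts describe sequence, and mRNA half-life was not measured.

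Close relatives of the members were mostly at low or similar levels. DUSP10, a phosphatase of JNK and p38, rose from 11.1 ± 0.459 to 15.9 ± 0.741 FPKM, a ratio of 1.43 with a log2 difference of 0.48 (limma adjusted p = 0.00986). It was at 15.1, 16.5 and 15.9 FPKM after corilagin and at 10.6, 11.5 and 11.2 FPKM in DMSO, with no overlap. PTPN7, a tyrosine phosphatase of blood cells that acts on ERK and p38, fell to 0.747 of its DMSO level (log2 difference -0.41, limma adjusted p = 0.0323). Removing the GC trend brought the PTPN7 difference to -0.23 (limma adjusted p = 0.00315). Against DMSO replicate 3 alone the PTPN7 ratio was 0.872. DUSP10 and PTPN7 were the only calls among 10 tested members of the list of other MAP kinase phosphatases, beside 11.9% of all genes higher and 13.5% lower. The list had a median log2 difference of 0.05, beside 0.03 over all genes tested. With the GC trend removed 3 were higher and 2 lower, beside 21.8% and 23.2% of all genes. SPRY1, SPRY3, SPRY4 and SPRED3 reached at most 0.634 FPKM in any library and fell below the filter, so SPRY2 and SPRED2 were the Sprouty and SPRED mRNAs that averaged 1 FPKM or more. In the fit without a filter SPRY3 passed, from 0.320 ± 0.0462 to 0.602 ± 0.0342 FPKM with no overlap (limma adjusted p = 0.0124). The phosphatase DUSP8 passed there too, from 0.0460 ± 0.0140 to 0.170 ± 0.0237 FPKM with no overlap (limma adjusted p = 0.0116). Its values rest on 15 to 19 fragments per corilagin library and 3 to 5 per DMSO library. SPRY4, often read as an ERK target beside DUSP6, was at 0.472, 0.421 and 0.408 FPKM after corilagin and at 0.287, 0.388 and 0.206 FPKM in DMSO, and did not pass in that fit (limma adjusted p = 0.114). ETV4, another factor of the PEA3 group, did not pass and had a negative difference. It was at 5.72, 5.86 and 5.27 FPKM after corilagin and at 8.45, 7.97 and 6.27 FPKM in DMSO (log2 difference -0.36, limma adjusted p = 0.0572). Removing the GC trend brought the ETV4 difference to -0.16, where it passed (limma adjusted p = 0.0359).

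In the list of other transcripts that ERK induces, 6 of 13 tested genes were lower after corilagin, 1 was higher and 6 did not pass, beside 13.5% of all genes lower and 11.9% higher. The median log2 difference was -0.55. With the GC trend removed 7 were lower and 5 higher, beside 23.2% and 21.8% of all genes, and the median was -0.34. MYC, a growth-promoting transcription factor, fell from 65.1 ± 5.44 to 26.1 ± 1.93 FPKM, a ratio of 0.401 (log2 difference -1.28, limma adjusted p = 0.00117). EGR1, an immediate early zinc finger factor, was at 56.6, 61.5 and 69.6 FPKM after corilagin and at 99.9, 127 and 126 FPKM in DMSO, a ratio of 0.532 (log2 difference -0.90, limma adjusted p = 0.00609). KLF6, a zinc finger factor induced by many stimuli, was the gene that rose, 1.70-fold (log2 difference 0.64, limma adjusted p = 0.0061). DUSP1 and DUSP2 thus moved in the direction of most called genes of this list, and DUSP5, ETV5 and PHLDA1 in the opposite one.

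Of 30 tested genes of the RAS to ERK cascade itself, 4 were higher and 3 lower, a share close to the 25.4% called among all genes. The median log2 difference was 0.17. With the GC trend removed it was 0.03, and 10 were higher and 4 lower. In that fit 45.0% of all genes were called, 21.8% higher and 23.2% lower, so the list is near that share only with both directions together. SOS2, an activator of RAS, was at 14.7, 15.5 and 16.6 FPKM after corilagin and at 6.68, 6.56 and 11.1 FPKM in DMSO. Its ratio was 1.93 with all libraries (log2 difference 0.90, limma adjusted p = 0.0175). The SOS2 ratio was 1.41 against DMSO replicate 3 alone and 2.36 without that library. Removing the GC trend brought its log2 difference to 0.55 (limma adjusted p = 0.000418). BRAF, a RAF kinase, rose 1.65-fold with all libraries and was 1.22-fold higher against DMSO replicate 3 alone. Removing the GC trend cut its log2 difference from 0.54 to 0.18 (limma adjusted p = 0.0350), and the call was lost with the replicate block added (limma adjusted p = 0.0675). FLT3, the mutated receptor of this line, and the MEK kinase MAP2K1 were the other rises, with log2 differences of 0.53 and 0.32. MRAS, a RAS relative that helps activate RAF, fell to 0.480 of its DMSO level (log2 difference -0.93, limma adjusted p = 0.00416), and RASGRP2, an activator of RAP and RAS GTPases, to 0.565 (log2 difference -0.76, limma adjusted p = 0.00468). HRAS was the other fall (log2 difference -0.44), which did not pass once the GC trend was removed (limma adjusted p = 0.0722).

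**Figure D4:**
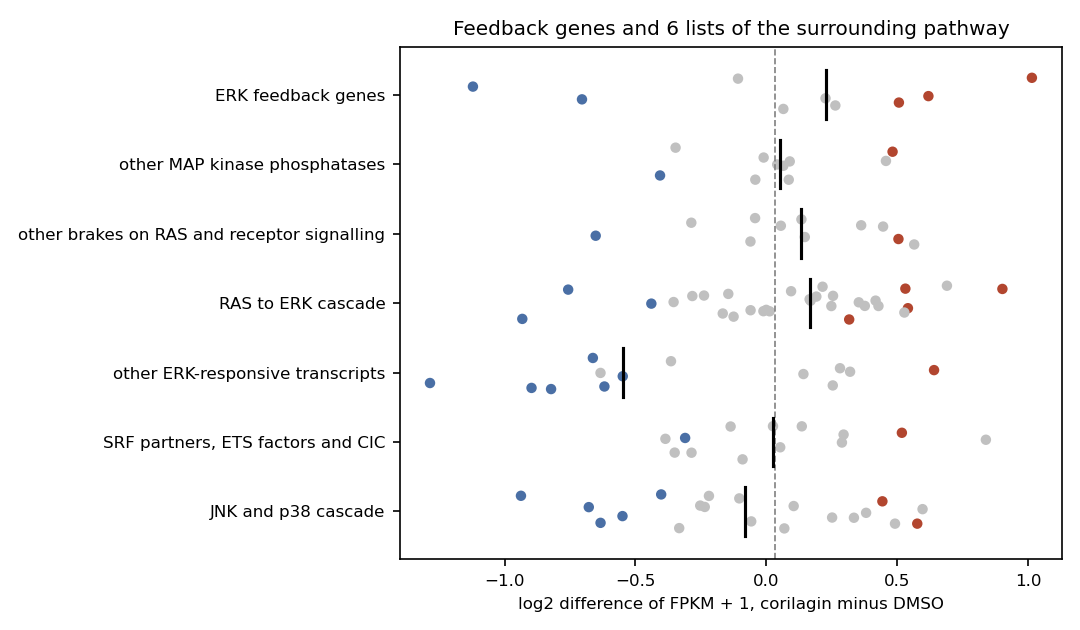
Log2 difference of each tested gene in the feedback set and in 6 lists of the surrounding pathway (red: higher, blue: lower at a limma adjusted p under 0.05; grey: not passed), with each list's median as a black line and that of all genes tested as a dashed line. The list of other ERK-responsive transcripts has its median at -0.55, and that of the 9 tested feedback genes is at 0.23.

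Among 11 other brakes on RAS and receptor signalling, 1 rose and 1 fell, beside 11.9% and 13.5% of all genes tested. ERRFI1, an inhibitor of the EGF receptor family, rose 1.57-fold (log2 difference 0.50, limma adjusted p = 0.0108), and PEBP1, the RAF kinase inhibitor protein, fell to 0.631 of its DMSO level (log2 difference -0.65, limma adjusted p = 0.0112). The list's median was 0.13, and its sign turned to -0.0017 with the GC trend removed. Among 13 SRF partners, ETS factors and CIC, 1 was higher and 1 lower, beside the same shares of all genes. ELF1 was higher (ratio 1.42), but not once the GC trend was removed (limma adjusted p = 0.383), and ETS2 was lower (ratio 0.799). In the JNK and p38 cascade, 2 of 20 genes were higher and 5 lower, with a median of -0.08, beside 11.9% and 13.5% of all genes tested. JUN, a subunit of AP-1 and target of JNK, rose 1.67-fold (log2 difference 0.58, limma adjusted p = 0.0050). RPS6KA5, a kinase that phosphorylates CREB, rose 1.76-fold but missed the threshold (limma adjusted p = 0.940) once that trend was removed. RPS6KA4, a second kinase that phosphorylates CREB, and MAPK12, a p38 isoform, fell to 0.498 and 0.547 of DMSO (log2 differences -0.94 and -0.68). MAPKAPK3, MAP2K3 and MAP3K11 were the other falls, with log2 differences of -0.63, -0.55 and -0.40. With the GC trend removed these 5 falls were smaller, at -0.70, -0.43, -0.48, -0.37 and -0.14 in the order named. That fit called 1 gene of the list higher and 5 lower, beside 21.8% and 23.2% of all genes.

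Among 6566 other protein-coding genes averaging 5 FPKM or more, the profile of DUSP6 over the 6 libraries was most like those of FUT4, COP1 and TM2D2, with Pearson correlations of 0.99, 0.985 and 0.981 on the log2 scale. Among the members, PHLDA1 (0.871, the 89.8th percentile of those 6566 genes) and DUSP5 (0.828, the 82.1st) were closest to DUSP6. DUSP1 (-0.819, the 25.0th percentile), DUSP2 (-0.792, the 27.6th) and DUSP4 (-0.666, the 36.2nd) ran opposite to it. All genes that differ between the 2 groups correlate in this way, so these values describe the 6 libraries only.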

How the data were processed

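Poly(A) RNA of 6 MV411 libraries was read in pairs, per the labels' protocols. The submitters' processing notes name fastp 0.22.0, HISAT2 2.1.0, HTSeq 0.9.1, DESeq 1.38.3 and GRCh38, without settings. The deposited values are FPKM, computed by the authors, in 1 table of 20036 Ensembl genes, of which 4115 were at 0 throughout. Symbols were matched for 20011 identifiers, and coordinates come from GENCODE release 29. FPKM divides by library total, so abundant genes can shift others. Fragments were recovered from FPKM as whole multiples of 1 fragment (tolerance 0.01), which the search itself requires.

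The test was limma 3.58.1 in R 4.3.3 (2-sided, with trend) on log2(FPKM + 1) for the 9868 genes averaging 1 FPKM or more, with Benjamini-Hochberg adjustment over them, a threshold of 0.05 and no covariate. The GC trend was removed by a natural spline with 5 degrees of freedom per library. It also takes out true differences that follow GC content. The scripts were tested on simulated data. Members, lists, motifs and alternatives were chosen with earlier results of these data known. The genes named from a list are up to 2 called rises and 2 called falls with the largest log2 difference. ATTTA counts and further genes, named to complete counts of 5 or fewer or as relatives of a member, were chosen after their values were seen. Alternatives were no filter, a filter at 5 FPKM, pseudocounts of 0.1 and 0.5, 3 scalings, the replicate number as a block, GC trend removal with and without that block, limma-voom on recovered fragments, and leaving out libraries. Protein sequences were not used here. 1 marker list is not reported here.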

Additional observations from a re-analysis of the deposited data

How the results depend on the processing

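The calls of DUSP1, DUSP2 and DUSP5 held in all 17, 18 and 17 alternatives in which each was tested, with log2 differences of -1.20 to -0.57, -1.26 to -0.89 and 0.91 to 1.25. PHLDA1 passed in 16 of 18 (0.45 to 0.74) and ETV5 in 13 of 18 (0.37 to 0.79). DUSP6 passed in 4 of 18, SPRED2 in 5 and SPRY2 in none. These counts include the fit against DMSO replicate 3 alone, where the spread comes from the corilagin libraries only. The sign of DUSP4 turned on rescaling to equal sums (0.0038) and against DMSO replicate 3 alone (0.058), and that of SPRY2 with quantile normalization (-0.015). Of the 5 members called, 3 remained in the fit at a mean of at least 5 FPKM (2 higher, 1 lower), which leaves DUSP1 and DUSP5 untested. Leaving out single libraries gave 3 to 8 members called and 1 to 5 higher. Without a corilagin library, 307 to 354 of the 9868 genes tested were called, and without DMSO replicate 3 it was 7627. Equal sums, GC trend removal, and that removal with the replicate block each gave 5 higher. In the 6 pathway lists 27 genes were called, 45 with the GC trend removed, 43 with the replicate block as well, 46 against DMSO replicate 3 alone, and 9 to 76 when single libraries were left out. The cause of these shifts was not tested. Equal sums moved the median of all genes from 0.03 to 0.14 and the calls from 1171 higher and 1331 lower to 1620 and 1059. Same-numbered libraries deviated together with correlations of 0.280, 0.0787 and 0.339, and libraries of other numbers with -0.323 to 0.279. Each corilagin library correlated best with the DMSO library of its number, for corilagin replicate 1 by 0.280 against 0.279. DMSO replicate 2 correlated best with corilagin replicate 1. The numbers were not taken as pairs because the labels do not say that they pair. These correlations do not settle it. The replicate block alone left 5 members called (2877 genes in all). Of the genes named as the largest rises and falls of a pathway list, 7 passed in every alternative in which they were tested. They were MYC, EGR1, KLF6, JUN, MRAS, RASGRP2 and MAPK12, and each of the other largest rises and falls failed in at least 1. Further genes named from these lists were not followed through all alternatives. The few fragments of DUSP1 limit its precision.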
